A study of Homo sapiens with 9 samples.

Results

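Transcripts of 41 lysosome and autophagy genes were followed in HT1080, a cell line grown from a human fibrosarcoma. The genes were taken from a list of lysosomal hydrolases, lysosomal membrane and proton pump proteins and autophagy proteins, and were found on the arrays by gene symbol. Of the 41 genes, 40 had at least 1 named probe set with values, 74 probe sets in all, out of 9453 genes and 15485 probe sets measured in the series. The remaining gene, GLB1 (beta-galactosidase), shared its annotated probe set with another gene and was not analysed here. There were 3 arrays each of untreated MTAP-negative HT1080 cells, untreated MTAP-positive HT1080 cells, and MTAP-positive cells given MT-DADMe-ImmA at 10 µM for the last 48 hours before harvest. MTAP, methylthioadenosine phosphorylase, splits methylthioadenosine, which is left over when polyamines are made, and so lets the cell recover adenine and methionine. MT-DADMe-ImmA blocks the enzyme as a mimic of its transition state. The sources used here do not say how the MTAP-positive cells were made or whether they were 1 clone. All groups share the HT1080 background and DMEM as the medium.

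Lysosomes are acidic compartments in which hydrolases break down proteins, lipids and sugars that arrive by endocytosis or autophagy. A proton pump, the V-ATPase, acidifies them, and membrane proteins such as NPC1 carry the products out. In autophagy, a membrane grows around cytoplasmic cargo, closes and fuses with the lysosome. The transcription factor TFEB can raise many of these genes together by binding a palindrome in their promoters called the CLEAR element, and growth signals through mTORC1 at the lysosome surface keep TFEB out of the nucleus.

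The MTAP transcript followed the labels, with log2 values of 4.25 to 5.02 on MTAP-negative, 11.37 to 11.74 on MTAP-positive and 11.10 to 11.30 on inhibitor-treated arrays. Of 7 mesenchymal markers 4 had values, with group means of 10.81 to 14.02 (log2), and of 3 endothelial markers none had. VIM was level at 13.93 to 14.02, while FN1 had means of 10.81, 12.15 and 12.38 in MTAP-negative, MTAP-positive and inhibitor-treated cells. Of 6 epithelial markers KRT8 and KRT18 had values, with group means of 9.73 to 12.47. Of 6 blood markers LYZ alone had values, and CD68 had no probe set under its symbol alone. The LYZ means were 4.89, 7.35 and 5.68 in the same order as for FN1. The first and last lay below 6.64, the level that every deposited probe set reached on at least 3 arrays. The LYZ shift thus supports nothing. The part of the FN1 and LYZ shifts in the results was not tested. RNA quality was read from the ACTB control probe sets as the signal at the 5' end less that at the 3' end, which was -2.50 ± 0.90 (log2, SD, n = 3) in MTAP-negative, -1.43 ± 0.45 in MTAP-positive and -1.64 ± 0.66 in inhibitor-treated cells, and reached -3.52 on MTAP-negative replicate 3. In exact two-sided permutation tests the MTAP-negative arrays differed from the MTAP-positive ones with p = 0.2 and from the inhibitor-treated ones with p = 0.4, and groups of this size cannot give less than 0.1. This measure was thus lowest in the group in which most members described below were also lowest. Adding it to the model as a covariate ended some calls, given beside each gene; beyond that its part in the results was not tested. MTAP-positive replicate 2 stood apart from its group over the members: their mean deviation from their own averages was -0.11 on it, against 0.12 and 0.15 on the other MTAP-positive arrays.

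Promoters of members that passed in at least 2 of the comparisons below are shown first, because the CLEAR element is the sequence through which TFEB is known to act on this group. They are RefSeq windows of the GRCh38.p14 build, from 250 bases before to 50 bases after a start site, and such windows were found for 32 of the 41 genes; CTSB and PSAP, which also passed in 2 comparisons, are named only. NPC1, GAA, WIPI1, NPC2, ULK1 and SMPD1 are given whole, 5′ to 3′ on the gene's strand. In GAA the capitals mark the CLEAR palindrome GTCACGTGAC. In the others they mark the GC box GGGCGG or its reverse complement CCGCCC, which the factor SP1 binds.
NPC1, chr18:23586457-23586756, minus strand: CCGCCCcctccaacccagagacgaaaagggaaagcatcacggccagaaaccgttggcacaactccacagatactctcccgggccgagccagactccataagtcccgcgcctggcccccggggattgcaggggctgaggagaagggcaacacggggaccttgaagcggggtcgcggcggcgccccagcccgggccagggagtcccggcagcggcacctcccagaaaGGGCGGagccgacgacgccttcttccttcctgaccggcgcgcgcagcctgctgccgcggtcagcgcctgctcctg
GAA, chr17:80101331-80101630, plus strand: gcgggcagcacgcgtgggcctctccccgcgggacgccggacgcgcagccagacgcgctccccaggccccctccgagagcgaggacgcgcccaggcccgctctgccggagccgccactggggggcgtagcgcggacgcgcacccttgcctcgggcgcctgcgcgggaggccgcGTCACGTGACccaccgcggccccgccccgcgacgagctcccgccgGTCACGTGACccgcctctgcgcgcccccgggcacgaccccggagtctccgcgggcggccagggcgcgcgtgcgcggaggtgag
WIPI1, chr17:68457447-68457746, minus strand: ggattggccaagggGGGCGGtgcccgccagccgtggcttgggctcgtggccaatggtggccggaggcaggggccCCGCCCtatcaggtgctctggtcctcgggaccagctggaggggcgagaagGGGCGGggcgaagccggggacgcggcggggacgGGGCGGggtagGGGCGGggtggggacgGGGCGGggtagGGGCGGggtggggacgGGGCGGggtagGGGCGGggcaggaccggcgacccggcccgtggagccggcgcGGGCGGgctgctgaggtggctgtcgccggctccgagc
NPC2 (the upstream one of 2 listed start sites), chr14:74493463-74493762, minus strand: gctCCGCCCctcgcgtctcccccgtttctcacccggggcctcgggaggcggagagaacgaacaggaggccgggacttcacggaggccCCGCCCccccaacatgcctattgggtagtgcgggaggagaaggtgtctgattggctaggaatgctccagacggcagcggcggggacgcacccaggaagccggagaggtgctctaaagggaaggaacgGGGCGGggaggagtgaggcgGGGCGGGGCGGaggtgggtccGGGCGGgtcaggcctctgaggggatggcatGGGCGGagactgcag
ULK1, chr12:131894372-131894671, plus strand: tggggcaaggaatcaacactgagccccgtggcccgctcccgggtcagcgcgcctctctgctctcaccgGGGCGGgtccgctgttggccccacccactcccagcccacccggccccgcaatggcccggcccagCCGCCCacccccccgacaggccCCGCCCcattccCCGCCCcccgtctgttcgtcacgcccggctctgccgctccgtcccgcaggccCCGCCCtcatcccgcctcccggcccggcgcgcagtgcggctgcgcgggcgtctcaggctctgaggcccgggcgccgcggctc
SMPD1, chr11:6390224-6390523, plus strand: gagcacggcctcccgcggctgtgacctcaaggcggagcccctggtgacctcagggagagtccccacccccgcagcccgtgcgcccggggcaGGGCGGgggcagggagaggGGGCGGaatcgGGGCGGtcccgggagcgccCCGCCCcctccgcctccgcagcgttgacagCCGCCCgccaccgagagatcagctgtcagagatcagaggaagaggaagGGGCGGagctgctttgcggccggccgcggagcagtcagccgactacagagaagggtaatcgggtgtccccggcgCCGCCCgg
Exact matches to the palindrome GTCACGTGAC, which reads the same on both strands, were found in the promoters of 2 members, GAA and MCOLN1 (the calcium channel mucolipin 1). GAA held 2 copies, which began 78 and 33 bases before the start site. The palindrome lay in 0.353% of all 35116 promoters in the table, and in 0.421% of their 27305 genes. Its inner 8 letters TCACGTGA lay in 6 of the 32 members with a promoter (GAA, MCOLN1, LAMP1, CTSA, CLN3 and ATP6V0D1). They lay in 0.98% of all promoters and 1.18% of all genes. The inner 6 letters CACGTG lay in 8 members, CTSD and NEU1 being the others, and in 7.26% of all promoters and 8.77% of all genes. These shorter motifs are contained in the longer one. The GC box lay in 45% of all promoters, and the WIPI1 window held 10 copies. The windows around the sites of MCOLN1 and LAMP1, chosen because one holds the whole palindrome and the other, with 6 copies of the inner 6 letters, the most of any member, are given for comparison with GAA. The LAMP1 window shows the last 2 of those copies. The capitals mark GTCACGTGAC in MCOLN1 and TCACGTGA in LAMP1.
MCOLN1, chr19:7522566-7522632, plus strand: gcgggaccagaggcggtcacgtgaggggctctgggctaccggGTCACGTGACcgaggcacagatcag
LAMP1, chr13:113297194-113297260, plus strand: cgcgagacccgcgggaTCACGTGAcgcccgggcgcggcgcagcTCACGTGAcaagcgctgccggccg
A match is a description of letters, and binding was not measured.

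The members were compared between groups gene by gene, each gene by its probe set of highest mean level, with limma on all 9 arrays and Benjamini-Hochberg adjustment over all genes. A gene passed the test at an adjusted p below 0.05. The labels number the arrays 1 to 3 in every group, and all 3 comparisons share arrays, so the values of a gene in them are not independent. This main fit did not use the numbers as pairs, and a fit with them as a block is given further on. In MTAP-positive against MTAP-negative cells 8 of 40 members were higher and 0 lower (14 and 2 at an unadjusted p below 0.05), against 11.7% higher and 6.85% lower (18.5% in all) among all 9452 genes other than MTAP. In inhibitor-treated against MTAP-positive cells 2 members, NPC1 and WIPI1, were higher and 0 lower (6 and 4 unadjusted), against 5.95% and 7.49% (13.4% in all) of all genes. In inhibitor-treated against MTAP-negative cells 15 were higher and 1, ATG5, was lower, against 18.8% and 16.2% (35.0% in all) of all genes (18 and 3 members unadjusted). The log2 difference was above 0 for 30, 22 and 26 of the 40 members in these comparisons, against 52.9%, 47.4% and 50.2% of all genes. The members' median log2 difference was 0.21, 0.05 and 0.21 in these comparisons, beside 0.02, -0.02 and 0.00 over all genes, and the second of these turned to -0.06 when MTAP-positive replicate 2 was left out. The arrays of the groups did not overlap for 16, 14 and 21 members, against 34.8%, 34.8% and 52.7% of all genes. Altogether 17 members passed in at least 1 comparison and 23 in none.

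The count of 8 moved with single arrays. It was 4 when replicate 2 or 3 of the MTAP-negative group or replicate 3 of the MTAP-positive group was left out, 5 without replicate 1 of the latter, and 14 without its replicate 2. With the ACTB difference as a covariate 4 members were higher, and with array weights 14 were higher and 1 lower. Centring arrays on their medians left 6 higher and 1, NEU1, lower, while the share of higher genes among all genes called went from 63.0% to 45.4%. For inhibitor-treated against MTAP-negative cells that share went from 53.7% to 44.2%, with 14 members higher and 2 lower. Same-numbered arrays deviated together for the first 2 comparisons. With the replicate number as a block, 1919 genes rather than 1270, and 5 members rather than 2, passed between inhibitor-treated and MTAP-positive cells: ATG12 was also higher (0.38 ± 0.09, log2 ± SE, adjusted p = 0.0221), and ATG5 (-0.31 ± 0.09, adjusted p = 0.0475) and ATP6V0D1 (-0.41 ± 0.13, adjusted p = 0.0492) were lower. Without replicate 3 of the inhibitor-treated group, 370 genes passed in that comparison, with both NPC1 and WIPI1 among them.

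**Figure D1:**
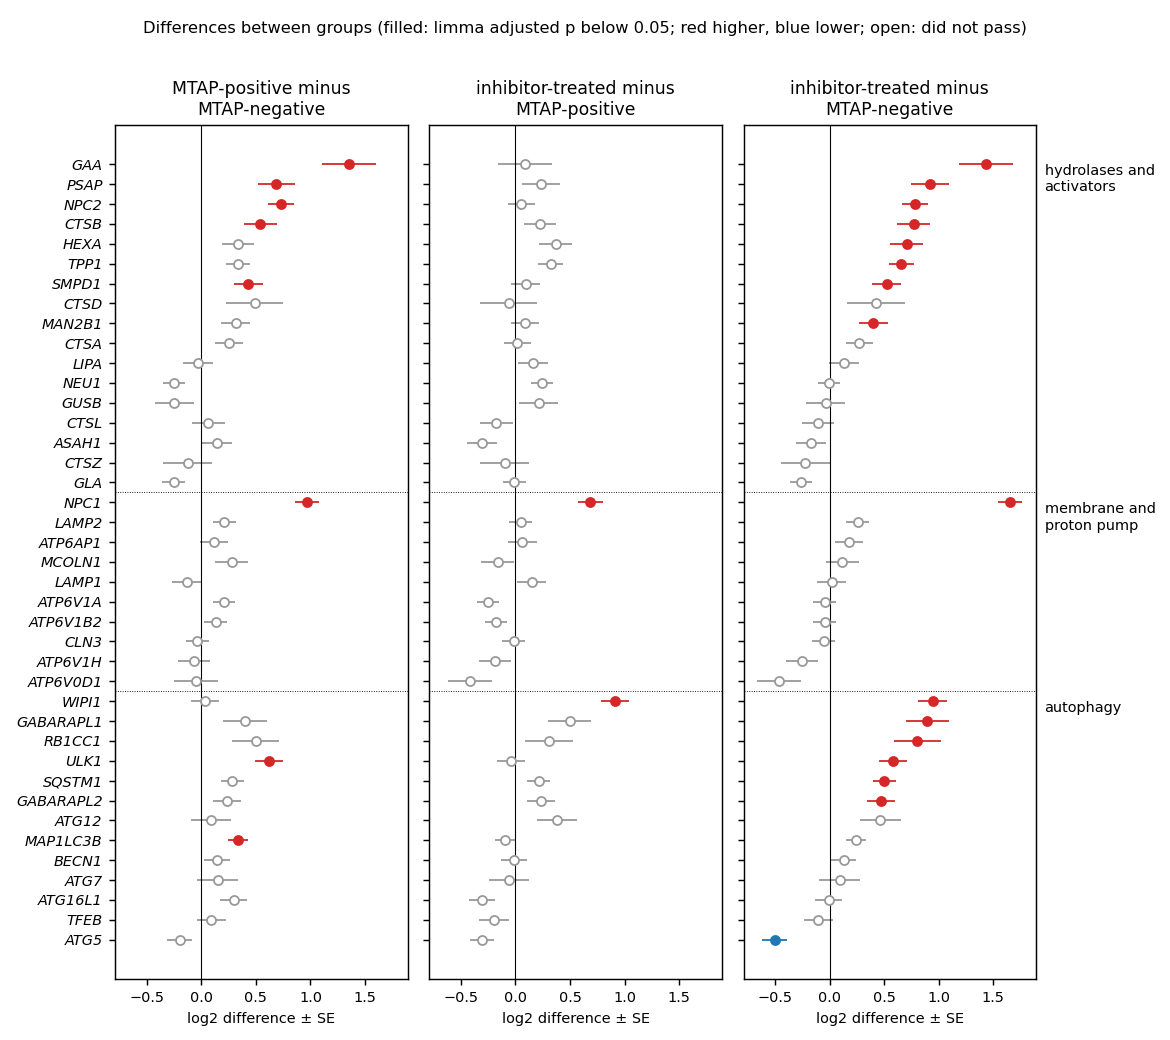
Log2 differences with their standard errors for the 40 members in the 3 comparisons, grouped as hydrolases and activators, membrane and proton pump, and autophagy genes. Filled points passed the test (red higher, blue lower) and open points did not; NPC1 is the one member filled in all 3 panels, and ATG5 in the third panel is the one filled point below 0.

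**Figure D2:**
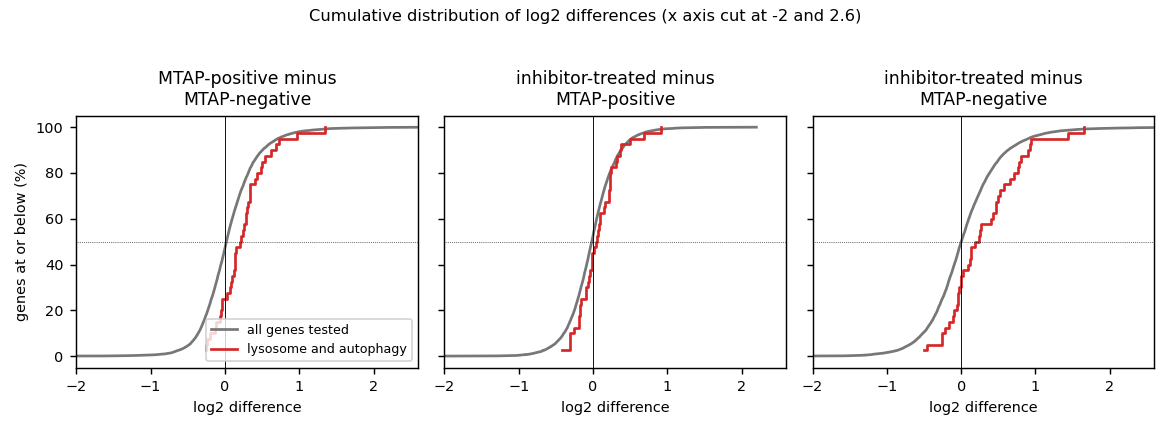
Cumulative share of genes (percent) at or below each log2 difference, for the 40 lysosome and autophagy genes (red) and all 9452 genes tested other than MTAP (grey). The red line lies to the right of the grey line around its middle in the left and right panels, where the medians are 0.21 against 0.02 and 0.21 against 0.00, and close to it in the middle panel (0.05 against -0.02).

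Hydrolases and their activators are the largest class. Of 17 measured, 5 were higher in MTAP-positive than in MTAP-negative cells, 0 passed between inhibitor-treated and MTAP-positive cells, and 8 were higher in inhibitor-treated than in MTAP-negative cells. These are 29.4%, 0% and 47.1% of the class, beside 11.7%, 5.95% and 18.8% of all genes. The median difference of the class was 0.31, 0.09 and 0.40 (log2).

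GAA, the acid alpha-glucosidase that breaks down glycogen, read 7.21, 7.06 and 6.60 on the MTAP-negative arrays, 8.62, 7.85 and 8.47 on the MTAP-positive arrays and 8.78, 7.99 and 8.41 with inhibitor (log2). Every array with MTAP lay above every array without it, while the groups with and without inhibitor overlapped. GAA rose by 1.35 ± 0.25 (log2 ± SE, 2.55-fold, limma adjusted p = 0.00465) in MTAP-positive and by 1.44 ± 0.25 (2.71-fold, adjusted p = 0.00152) in inhibitor-treated against MTAP-negative cells. With against without inhibitor it differed by 0.08 ± 0.25 (adjusted p = 0.860). GAA read below 6.64 on MTAP-negative replicate 3. Its call against MTAP-negative cells held in all 19 alternatives that could test it, the ACTB covariate among them.

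NPC2, the soluble lysosomal protein that hands cholesterol to NPC1, read 10.82, 10.53 and 10.80 on MTAP-negative, 11.46, 11.25 and 11.61 on MTAP-positive and 11.50, 11.50 and 11.49 on inhibitor-treated arrays. It was thus higher on every array with MTAP, and the inhibitor-treated arrays lay within the range of the MTAP-positive ones. It rose by 0.73 ± 0.12 (1.66-fold, adjusted p = 0.00289) with MTAP and by 0.78 ± 0.12 in inhibitor-treated against MTAP-negative cells (adjusted p = 8.43e-04).

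PSAP encodes prosaposin, the precursor of the saposins that help enzymes reach sphingolipids. It read 11.89, 11.54 and 11.74 on MTAP-negative, 12.51, 12.02 and 12.71 on MTAP-positive and 12.77, 12.47 and 12.70 on inhibitor-treated arrays. The difference with MTAP was 0.69 ± 0.17 (1.61-fold, adjusted p = 0.0214), and inhibitor-treated against MTAP-negative cells gave 0.92 ± 0.17 (adjusted p = 0.00244). The first of these calls of PSAP was lost when MTAP-negative replicate 2 (adjusted p = 0.0762) or 3 (0.0554) was left out, and likewise for MTAP-positive replicates 1 (0.0574) and 3 (0.0766).

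CTSB, the cysteine protease cathepsin B, read 11.22, 11.39 and 11.29 on MTAP-negative, 12.01, 11.50 and 12.01 on MTAP-positive and 12.21, 11.91 and 12.08 on inhibitor-treated arrays. MTAP-positive replicate 2 lay closer to the MTAP-negative arrays than to the rest of its group. CTSB rose by 0.54 ± 0.15 (1.46-fold, adjusted p = 0.0301) with MTAP and by 0.77 ± 0.15 (1.71-fold, adjusted p = 0.00276) in inhibitor-treated against MTAP-negative cells. The call with MTAP was lost with the ACTB covariate (adjusted p = 0.0540), with only the 2 groups fitted (0.0620), and on leaving out replicate 1 (0.0801), 2 (0.0549) or 3 (0.0773) of the MTAP-negative or replicate 1 (0.0864) or 3 (0.102) of the MTAP-positive group. The call against MTAP-negative cells with inhibitor held in all 20 alternatives.

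SMPD1, acid sphingomyelinase, read 8.27 to 8.33 on MTAP-negative, 8.89, 8.43 and 8.88 on MTAP-positive and 8.96, 8.75 and 8.77 on inhibitor-treated arrays. It rose by 0.43 ± 0.13 with MTAP (adjusted p = 0.0471), close to the threshold, and by 0.52 ± 0.13 (adjusted p = 0.0119) in inhibitor-treated against MTAP-negative cells. The call with MTAP was lost in 13 of 19 alternatives. For SMPD1 they included centred arrays (adjusted p = 0.0835), the ACTB covariate (0.125), and the fits that left out replicate 1 (0.0868), 2 (0.0991) or 3 (0.119) of the MTAP-negative, replicate 1 (0.132) or 3 (0.149) of the MTAP-positive, or any replicate of the inhibitor-treated group (0.0587 to 0.0700).

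TPP1, HEXA and MAN2B1 passed only between inhibitor-treated and MTAP-negative cells, which does not show that their changes were particular to that comparison. TPP1, a protease that trims tripeptides, read 9.75, 9.87 and 10.04 on MTAP-negative, 10.28, 10.05 and 10.33 on MTAP-positive and 10.54, 10.57 and 10.51 on inhibitor-treated arrays. The 3 groups of TPP1 arrays did not overlap. TPP1 was 0.66 ± 0.11 higher in inhibitor-treated than in MTAP-negative cells (1.58-fold, adjusted p = 0.00149). The 2 steps between were 0.34 ± 0.11 (adjusted p = 0.0633, and 0.0486 with the replicate block) and 0.32 ± 0.11 (adjusted p = 0.0852). HEXA, the alpha subunit of beta-hexosaminidase, read 9.39, 8.96 and 8.96 on MTAP-negative, 9.53, 9.19 and 9.61 on MTAP-positive and 9.78, 9.79 and 9.86 on inhibitor-treated arrays. HEXA was 0.71 ± 0.15 higher in inhibitor-treated than in MTAP-negative cells (1.63-fold, adjusted p = 0.00425). MAN2B1, the lysosomal alpha-mannosidase, was 0.40 ± 0.13 higher there (adjusted p = 0.0361). The MAN2B1 call was lost with centred arrays (adjusted p = 0.0682), and on leaving out replicate 1 (0.0951), 2 (0.0775) or 3 (0.0631) of the MTAP-negative or replicate 1 (0.112) or 3 (0.107) of the inhibitor-treated group.

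The hydrolases that passed in no comparison were CTSA, CTSD, CTSL, CTSZ, GLA, GUSB, NEU1, LIPA and the ceramidase ASAH1, which differed by -0.25 to 0.49 with MTAP and by -0.31 to 0.24 with inhibitor. CTSA, which protects beta-galactosidase and neuraminidase in a complex, read 9.82 to 9.91 on MTAP-negative and 9.85 to 10.26 on MTAP-positive arrays. The aspartyl protease CTSD varied most within a group, from 6.31 to 7.40 on the MTAP-negative arrays, and its difference of 0.49 ± 0.26 did not pass (adjusted p = 0.221). The sialidase NEU1 read 8.84 to 8.99 on MTAP-negative, 8.60 to 8.74 on MTAP-positive and 8.84 to 8.99 on inhibitor-treated arrays. The MTAP-positive arrays of NEU1 lay below both other groups, but -0.25 ± 0.10 with MTAP (adjusted p = 0.103) and 0.24 ± 0.10 with inhibitor (adjusted p = 0.130) did not pass. With centred arrays the fall of NEU1 with MTAP passed (-0.33 ± 0.10, adjusted p = 0.0425). CTSZ had group means of 6.37 to 6.59, below the level of 6.64 that every deposited probe set reached on at least 3 arrays, and no fold is given for it. GLA, the alpha-galactosidase lost in Fabry disease, read 9.13 to 9.25 on MTAP-negative, 8.80 to 9.09 on MTAP-positive and 8.86 to 9.02 on inhibitor-treated arrays. Its MTAP-negative arrays lay above all others, but -0.25 ± 0.10 with MTAP did not pass for GLA (adjusted p = 0.119). GUSB, beta-glucuronidase, was within 9.59 to 9.98 on every array but MTAP-positive replicate 2, which read 9.10. The cysteine protease CTSL differed by 0.07 ± 0.15 with MTAP and -0.17 ± 0.15 with inhibitor, and the acid lipase LIPA by -0.03 ± 0.14 and 0.16 ± 0.14.

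**Figure D3:**
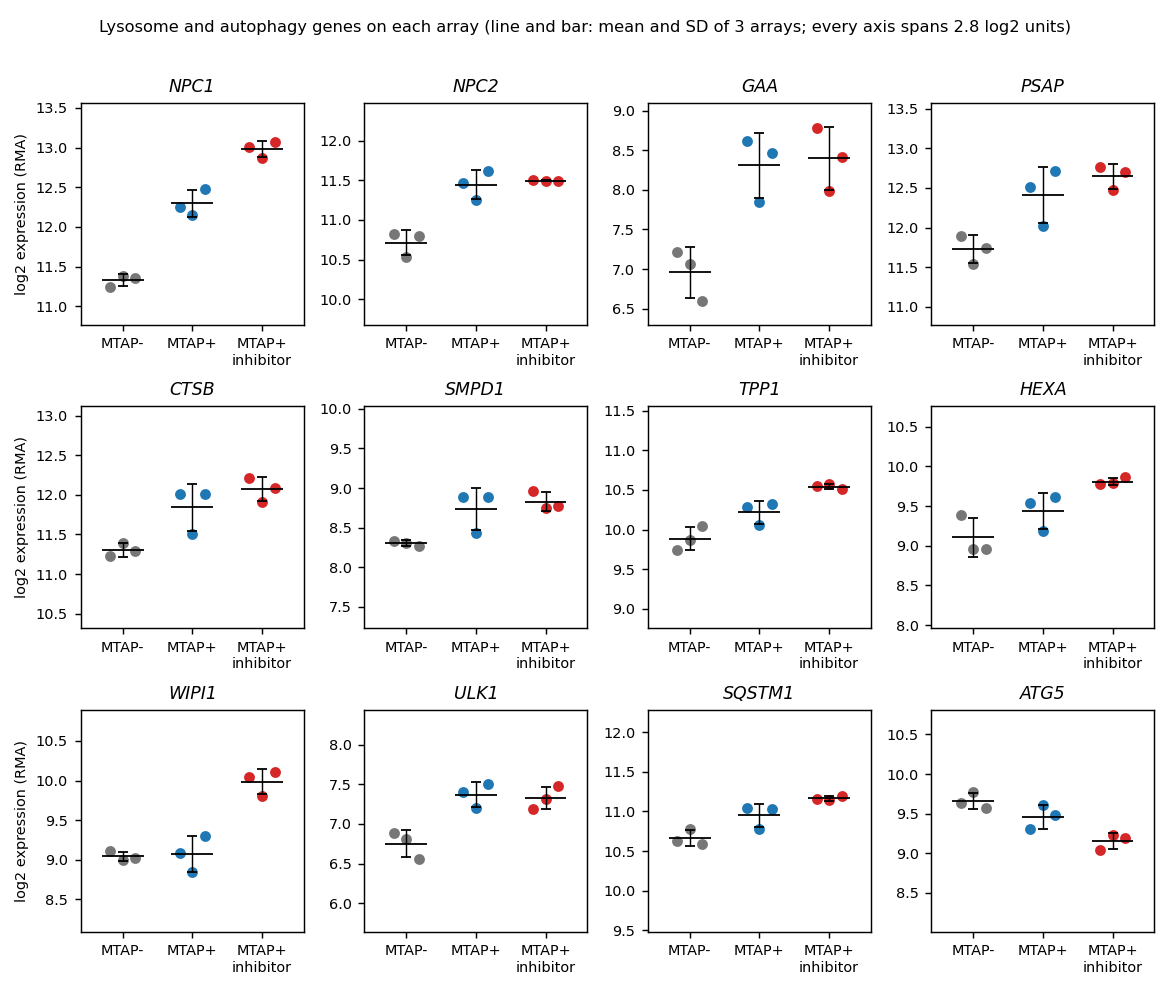
Log2 expression of 12 members on each of the 9 arrays, with the mean and SD of 3 arrays per group; every axis spans the same log2 range. NPC1 climbs from 11.25 to 11.39 without MTAP to 12.87 to 13.07 with inhibitor, WIPI1 stands higher with inhibitor alone, and GAA, NPC2 and ULK1 are about level between the groups with MTAP.

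Among 10 membrane and proton pump genes, NPC1 was the one that passed, and it passed in every comparison. The share called was thus 10.0% of the class in each, beside 18.5%, 13.4% and 35.0% of all genes. NPC1, which moves cholesterol out of the lysosome, read 11.25, 11.39 and 11.36 on MTAP-negative, 12.25, 12.15 and 12.48 on MTAP-positive and 13.01, 12.87 and 13.07 on inhibitor-treated arrays. No array of one group overlapped those of another. NPC1 rose by 0.97 ± 0.11 with MTAP (log2 ± SE, 1.96-fold, limma adjusted p = 3.83e-04), by 0.69 ± 0.11 with inhibitor (1.61-fold, adjusted p = 0.00501), and by 1.65 ± 0.11 from MTAP-negative to inhibitor-treated cells (3.15-fold, adjusted p = 9.22e-06). All 3 calls held in each of 20 alternatives, with log2 differences of 0.87 to 1.11, 0.58 to 0.83 and 1.59 to 1.90. The fit on the mean of all probe sets is among them, and it gave the upper ends 0.83 and 1.90. That fit includes a second NPC1 probe set that adds no support, for a reason given further on.

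Without array weights or the replicate block, the V-ATPase genes among the members did not pass in any comparison. ATP6V1A, the catalytic subunit, read 10.82 to 10.90 on MTAP-negative, 10.93 to 11.19 on MTAP-positive and 10.74 to 10.91 on inhibitor-treated arrays, so that the MTAP-positive arrays lay above both other groups. Its differences were 0.21 ± 0.10 with MTAP (adjusted p = 0.180) and -0.25 ± 0.10 with inhibitor (adjusted p = 0.130). ATP6V1B2 and ATP6V1H, further subunits of the cytoplasmic part, differed by 0.13 ± 0.10 and -0.07 ± 0.14 with MTAP and by -0.18 ± 0.10 and -0.19 ± 0.14 with inhibitor. ATP6V0D1, of the membrane part, read 10.42, 9.69 and 10.12 on the MTAP-positive and 9.94, 9.40 and 9.65 on the inhibitor-treated arrays, lower in each same-numbered pair. ATP6V0D1 differed by -0.41 ± 0.20 with inhibitor (adjusted p = 0.208), and with the replicate block it was lower (-0.41 ± 0.13, adjusted p = 0.0492), as it was against MTAP-negative cells (-0.46 ± 0.13, adjusted p = 0.0175). The accessory subunit ATP6AP1 differed by 0.12 ± 0.13 and 0.06 ± 0.13.

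The lysosomal membrane glycoprotein LAMP1 was bright on every array, at 12.03 to 12.58, and differed by -0.13 ± 0.13 with MTAP and 0.15 ± 0.13 with inhibitor. LAMP2, its relative, read 9.92 to 10.07 on MTAP-negative and 10.14 to 10.32 on MTAP-positive arrays, without overlap, but 0.21 ± 0.11 did not pass (adjusted p = 0.196). MCOLN1, whose promoter holds the CLEAR palindrome, read 6.78 to 7.17 on MTAP-negative, 6.98 to 7.53 on MTAP-positive and 7.01 to 7.14 on inhibitor-treated arrays. MCOLN1 differed by 0.28 ± 0.15 with MTAP (adjusted p = 0.224) and -0.16 ± 0.15 with inhibitor (adjusted p = 0.521). CLN3, the membrane protein lost in juvenile Batten disease, differed by -0.04 ± 0.11 and -0.02 ± 0.11. Of the 8 members with CACGTG in the promoter, 1, GAA, was higher with MTAP, against 5 of 23 members whose promoter lacks it, 2 of 9 with no promoter in the table and 11.7% of all genes. In inhibitor-treated against MTAP-negative cells the counts were 1 of 8, 10 of 23 and 4 of 9, against 18.8%. Whether these shares differ was not tested.

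Of 13 autophagy genes, 2 were higher with MTAP, 1 with inhibitor, and 6 were higher and 1 lower in inhibitor-treated than in MTAP-negative cells. The higher genes are 15.4%, 7.69% and 46.2% of the class, beside 11.7%, 5.95% and 18.8% of all genes. The median difference of the class was 0.24, -0.01 and 0.47 (log2). ULK1, the kinase that starts autophagy, read 6.88, 6.80 and 6.56 on MTAP-negative, 7.40, 7.20 and 7.50 on MTAP-positive and 7.19, 7.31 and 7.47 on inhibitor-treated arrays. ULK1 rose by 0.62 ± 0.13 with MTAP (1.54-fold, adjusted p = 0.00853) and differed by -0.04 ± 0.13 with inhibitor (adjusted p = 0.860), and the inhibitor-treated arrays overlapped the MTAP-positive ones. The call with MTAP was lost with the ACTB covariate (adjusted p = 0.0777). RB1CC1, the scaffold of the ULK1 complex, read 9.36 to 9.58 on MTAP-negative, 9.51, 10.39 and 10.08 on MTAP-positive and 9.95, 10.40 and 10.56 on inhibitor-treated arrays. RB1CC1 was 0.80 ± 0.22 higher in inhibitor-treated than in MTAP-negative cells (1.75-fold, adjusted p = 0.0155), a call lost with the ACTB covariate (adjusted p = 0.0713) and without MTAP-negative replicate 3 (0.0502) or inhibitor-treated replicate 3 (0.0667). The second RB1CC1 probe set differed there by 0.46 ± 0.20, which did not pass over all probe sets (adjusted p = 0.112).

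WIPI1 binds the lipid PI3P on the growing membrane. It read 9.11, 9.002 and 9.02 on MTAP-negative, 9.08, 8.84 and 9.30 on MTAP-positive and 10.04, 9.81 and 10.11 on inhibitor-treated arrays. The 2 untreated groups overlapped, and every inhibitor-treated array lay above them. WIPI1 rose by 0.91 ± 0.13 with inhibitor (1.88-fold, adjusted p = 0.00263) and differed by 0.03 ± 0.13 with MTAP (adjusted p = 0.893). The rise with inhibitor held in all 20 alternatives, at 0.78 to 1.02. BECN1, part of the lipid kinase complex that makes PI3P, differed by 0.14 ± 0.12 and -0.01 ± 0.12.

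The ubiquitin-like ATG8 proteins are attached to the autophagic membrane. MAP1LC3B, the one most used as a marker of autophagy, read 10.07 to 10.24 on MTAP-negative, 10.51 on all MTAP-positive and 10.39 to 10.46 on inhibitor-treated arrays. MAP1LC3B rose by 0.33 ± 0.09 with MTAP (adjusted p = 0.0310), and its difference with inhibitor was -0.09 ± 0.09 (adjusted p = 0.544). The first call of MAP1LC3B was lost in 12 of 19 alternatives, among them its probe sets averaged (0.14 in log2, adjusted p = 0.287), the ACTB covariate (0.149) and the fits that left out replicate 1 (0.0508), 2 (0.0802) or 3 (0.0623) of the MTAP-negative, replicate 1 (0.0661) or 3 (0.0805) of the MTAP-positive, or replicate 1 (0.0516) or 3 (0.0527) of the inhibitor-treated group. GABARAPL1 read 6.68 to 7.10 on MTAP-negative, 7.24, 6.87 and 7.78 on MTAP-positive and 7.71 to 7.85 on inhibitor-treated arrays, with a difference of 0.90 ± 0.20 between the last group and the first (1.86-fold, adjusted p = 0.00595). GABARAPL1 differed by 0.40 ± 0.20 with MTAP (adjusted p = 0.183) and 0.50 ± 0.20 with inhibitor (adjusted p = 0.129), and without MTAP-positive replicate 3 the latter passed (0.74 ± 0.16, adjusted p = 0.0167). GABARAPL2 was 0.47 ± 0.13 higher in inhibitor-treated than in MTAP-negative cells (adjusted p = 0.0152), a call lost without MTAP-negative replicate 2 (0.0516) or inhibitor-treated replicate 2 (0.0615). SQSTM1, the cargo receptor p62, read 10.59 to 10.78 on MTAP-negative, 11.05, 10.78 and 11.03 on MTAP-positive and 11.14 to 11.20 on inhibitor-treated arrays. SQSTM1 was 0.50 ± 0.11 higher in inhibitor-treated than in MTAP-negative cells (1.41-fold, adjusted p = 0.00465), and the single steps of 0.29 ± 0.11 (adjusted p = 0.0859) and 0.21 ± 0.11 (adjusted p = 0.211) did not pass.

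ATG5 forms with ATG12 and ATG16L1 the complex that attaches the ATG8 proteins, and ATG7 is the activating enzyme of both conjugation steps. ATG5 read 9.57 to 9.78 on MTAP-negative, 9.30 to 9.61 on MTAP-positive and 9.05 to 9.23 on inhibitor-treated arrays. ATG5 was the one member called lower in the main fit, which used no replicate block. It fell by 0.50 ± 0.11 on the log2 scale (-0.50, adjusted p = 0.00628) from MTAP-negative to inhibitor-treated cells. This call was lost when its 3 probe sets were averaged (-0.14, adjusted p = 0.472). With the block ATP6V0D1 was lower there too. ATG12 differed by 0.47 ± 0.18 in the same comparison (adjusted p = 0.0731), ATG16L1 by -0.01 ± 0.12 and ATG7 by 0.09 ± 0.19. The ATG12 difference passed in 5 alternatives, among them array weights, the ACTB covariate and the replicate block. ATG16L1 read 7.40 to 7.71 on the MTAP-positive and 7.24 to 7.38 on the MTAP-negative arrays, without overlap, and its difference did not pass (adjusted p = 0.113). TFEB read 6.61 to 7.14 on MTAP-negative, 6.94 to 7.06 on MTAP-positive and 6.68 to 6.90 on inhibitor-treated arrays, and differed by 0.09 ± 0.14 with MTAP (adjusted p = 0.673) and -0.19 ± 0.14 with inhibitor (adjusted p = 0.374).

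Other probe sets of the same genes were compared after fitting all 15485 named probe sets together. Of the 40 members, 20 had 1 probe set with values and 20 had several. The second NPC1 probe set read 5.24 to 5.55 on MTAP-negative, 6.41 to 6.93 on MTAP-positive and 7.44 to 7.76 on inhibitor-treated arrays. It reached 6.64 on 3 arrays only through the inhibitor-treated group, where it was high, so it had to differ and adds no support to the NPC1 result. Both WIPI1 probe sets were higher with inhibitor, the second by 0.88 ± 0.17 (adjusted p = 0.0122). With MTAP the second WIPI1 probe set differed by 0.46 ± 0.17, which did not pass (adjusted p = 0.0889), against 0.03 ± 0.13 for the representative one. Of 5 CTSB probe sets 4 were higher with MTAP, by 0.54 to 0.90, and the other differed by 0.38 ± 0.24. The second PSAP probe set was higher by 1.15 ± 0.24 (adjusted p = 0.0112), and it read lowest on MTAP-negative replicate 3 (9.54 against 10.53 and 9.94). The second probe sets of GABARAPL1, TFEB and SMPD1 were also kept through the groups with MTAP, and no difference is given for them. GABARAPL1 read 6.31 to 6.60 on MTAP-negative and 6.99 to 7.13 on MTAP-positive arrays of that probe set, and TFEB 6.30 to 6.68 and 6.85 to 7.44. SMPD1 read 5.97 to 6.75 and 6.85 to 7.42 in the same order. The dimmest TPP1 probe set, at 5.88 to 6.69 on MTAP-negative arrays, was kept in the same way.

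Among the genes with several probe sets, those of ASAH1, ATG5, MAP1LC3B and LAMP1 disagreed. Signs also differed with MTAP for ATG12, ATG7 and CLN3, where no probe set passed. The second ATG12 probe set differed by 0.07 ± 0.10 with inhibitor, against 0.38 ± 0.19 for the representative one. In inhibitor-treated against MTAP-negative cells these were -0.09 ± 0.10 and 0.47 ± 0.19. The second MAP1LC3B probe set, at 9.80 to 9.99 on all arrays, differed by -0.05 ± 0.10 with MTAP (adjusted p = 0.767), where the representative one passed. Of 4 ASAH1 probe sets, the representative one differed by -0.31 ± 0.14 with inhibitor, whereas another was higher by 0.45 ± 0.11 (adjusted p = 0.0293), with 8.47 to 8.77 on MTAP-positive and 9.08 to 9.14 on inhibitor-treated arrays. With MTAP the ASAH1 probe sets also differed in sign, from -0.31 ± 0.11 to 0.77 ± 0.21. The one at 0.77 passed (adjusted p = 0.0389), but it read 6.36 on MTAP-negative replicate 2, below 6.64. For ATG5, one probe set differed by 0.65 ± 0.19 with inhibitor (adjusted p = 0.0561), opposite in sign to the -0.31 ± 0.11 of the representative one. The LAMP1 probe set with the widest spread read 5.86 on MTAP-negative replicate 3, the array with the lowest ACTB 5' minus 3' difference, against 8.02 and 7.98 on the other MTAP-negative arrays, and it did not pass with MTAP (0.94 ± 0.49, adjusted p = 0.220). Another LAMP1 probe set was higher in inhibitor-treated than in MTAP-negative cells (0.38 ± 0.13, adjusted p = 0.0451). The representative one differed there by 0.02 ± 0.14.

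**Figure D4:**
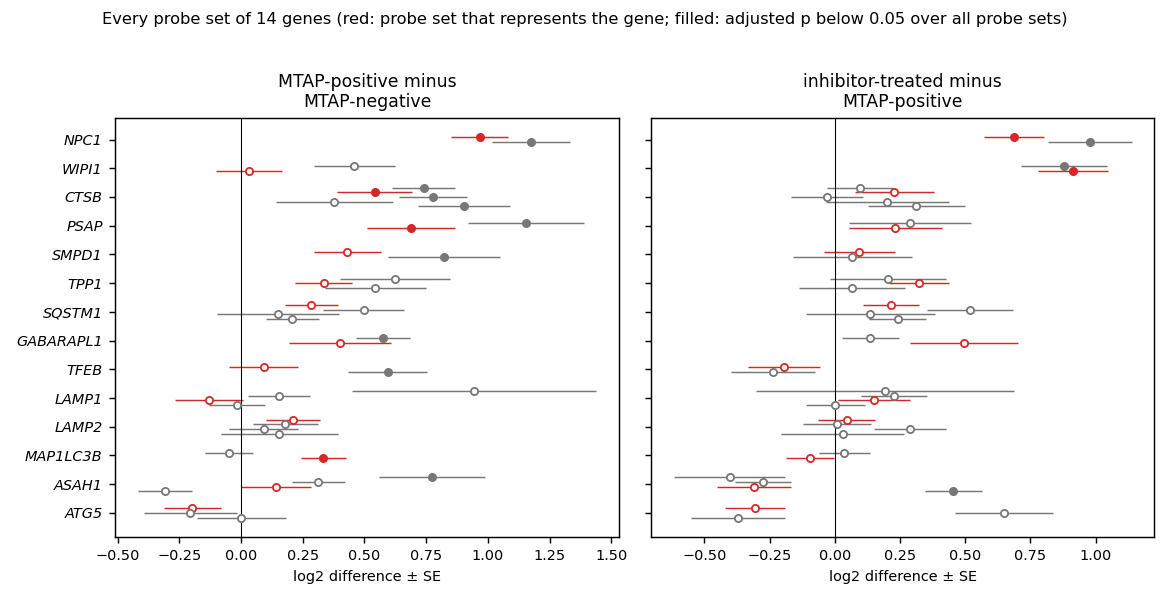
Log2 differences with standard errors of every probe set of 14 members, in MTAP-positive minus MTAP-negative and inhibitor-treated minus MTAP-positive cells; red marks the representative probe set and filled points passed over all probe sets. All probe sets of NPC1, CTSB, PSAP and TPP1 lie above 0 in the left panel, and those of ASAH1 and ATG5 lie on both sides of 0 in the right panel. The second probe sets of NPC1, GABARAPL1, TFEB and SMPD1 and the dimmest one of TPP1 were kept only through groups where they were high, so their points support nothing.

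Further genes of the same pathways were read from lists written with these results known. Of 18 other hydrolases and activators measured, 7 were higher with MTAP and 1 lower, 0 were higher and 1 lower with inhibitor, and 5 were higher and 1 lower in inhibitor-treated than in MTAP-negative cells. The shares called in either direction were 44.4%, 5.56% and 33.3%, beside 18.5%, 13.4% and 35.0% of all genes. The 7 include IDS, a sulfatase whose probe sets passed in opposite directions with MTAP (0.49 ± 0.11 for the representative one and -0.48 ± 0.11 for another; adjusted p = 0.0188 and 0.0200 over all probe sets), so that its direction is uncertain. The sulfatase ARSA, also among the 7, read 6.04 to 6.44 on the MTAP-negative arrays, all below 6.64. ARSA was kept only through the groups with MTAP, so its part in the 7 and in the share called supports nothing. The beta-mannosidase MANBA was higher with MTAP by 0.63 ± 0.13 (adjusted p = 0.00726). DPP7, a dipeptidyl peptidase (0.72 ± 0.22, adjusted p = 0.0434), and the phospholipase PLA2G15 (0.62 ± 0.19, adjusted p = 0.0487) passed over genes but not over all probe sets (0.0581 and 0.0638), and a second DPP7 probe set differed by -0.19 ± 0.16. ACP2, lysosomal acid phosphatase, rose from 7.99 ± 0.08 to 8.69 ± 0.11 with MTAP (log2, SD, n = 3; limma adjusted p = 0.00135) and was 7.80 ± 0.07 with inhibitor, a fall of 0.89 ± 0.10 (-0.89, adjusted p = 0.00113). ACP2 was the single gene of that list that passed with inhibitor. Of 17 other membrane and sorting proteins 1 was higher with MTAP, the transporter ABCA2 (0.61 ± 0.19, with an adjusted p just below the threshold, and 0.0656 over all probe sets), and 3 were higher and 1 lower in inhibitor-treated than in MTAP-negative cells. None of these proteins passed with inhibitor. Their shares called were 5.88%, 0% and 23.5%, beside 18.5%, 13.4% and 35.0% of all genes. Of 11 other proton pump subunits 0 were higher and 1 lower with MTAP, ATP6V0A1 (-0.47 ± 0.14, adjusted p = 0.0408, and 0.0529 over all probe sets), and none passed with inhibitor. In inhibitor-treated against MTAP-negative cells ATP6AP2 was higher (0.35 ± 0.11, adjusted p = 0.0255) and ATP6V0B lower (-0.75 ± 0.16, adjusted p = 0.00473). There 9 of the 11 subunits differed by less than 0, while 50.2% of all genes lay above 0. The shares of pump subunits called were 9.09%, 0% and 18.2%, beside 18.5%, 13.4% and 35.0% of all genes.

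Of 40 other autophagy genes 4 were higher and 1 lower with MTAP, 0 higher and 2 lower with inhibitor, and 7 higher and 4 lower in inhibitor-treated than in MTAP-negative cells. The shares called, 12.5% with MTAP, 5% with inhibitor and 27.5% in the last comparison, lay below the 18.5%, 13.4% and 35.0% of all genes. The scramblase gene ATG9A was higher with MTAP by 0.64 ± 0.18 (adjusted p = 0.0320) and GABARAP by 0.45 ± 0.12 (adjusted p = 0.0320), and the protease ATG4A, which processes ATG8 proteins, was lower by 0.57 ± 0.11 (-0.57, adjusted p = 0.00723). With inhibitor, the mitophagy receptor FUNDC1 was lower (-0.53 ± 0.11, adjusted p = 0.0107). The other of the 2 lower genes, ATG10, had group means of 6.82 without and 6.18 with inhibitor, the latter below 6.64. It was thus kept only through the untreated groups. ATG10 is also among the 4 lower in inhibitor-treated than in MTAP-negative cells. Its part in both counts and in both shares called supports nothing. ATG14, a partner of BECN1, was 0.80 ± 0.12 higher in inhibitor-treated than in MTAP-negative cells (adjusted p = 6.76e-04), and WDR45, a relative of WIPI1, 0.62 ± 0.15 (adjusted p = 0.00893).

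Of 22 regulators at the lysosome surface and TFEB relatives, 3 were higher and 3 lower with MTAP, 1 was higher and 2 lower with inhibitor, and 2 were higher and 3 lower in inhibitor-treated than in MTAP-negative cells. The shares called were 27.3%, 13.6% and 22.7%, beside 18.5%, 13.4% and 35.0% of all genes. DDIT4, which inhibits mTORC1, had group means of 8.10, 9.49 and 10.43 in MTAP-negative, MTAP-positive and inhibitor-treated cells, with rises of 1.39 ± 0.13 (adjusted p = 1.32e-04) and 0.94 ± 0.13 (adjusted p = 0.00233). MITF, a relative of TFEB, had means of 9.01, 8.19 and 7.81, and was lower with MTAP by 0.82 ± 0.14 (-0.82, adjusted p = 0.00349), while -0.37 with inhibitor did not pass for MITF. The GTPase RRAGD, which helps to bring mTORC1 to the lysosome, is among the 3 counted as lower with MTAP, but its MTAP-positive arrays, at 6.10 to 6.47, all lay below 6.64. It was kept only through the other groups, so its count supports nothing. FNIP2, a partner of folliculin, was lower by 0.58 ± 0.11 (-0.58, adjusted p = 0.00605). RPTOR, the mTORC1 scaffold raptor, was lower with inhibitor (-0.43 ± 0.10, adjusted p = 0.0201), after a mean of 7.66 without and 8.14 with MTAP, and the GTPase RRAGA was lower with inhibitor (-0.40 ± 0.11, adjusted p = 0.0325).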

How the data were processed

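The authors deposited log2 expression values. Per the submitters' processing notes these came from RMA, for which the sources used here give no version or settings. Values existed for 17474 of 54675 probe sets, each at or above 6.64 on at least 3 arrays. Of these, 15485 non-control probe sets carried 1 gene symbol, 841 several and 1140 none, and 15482 matched the RefSeq gene table by Entrez number. No second filter on dim genes was applied, so that no member was lost. Groups were compared with limma 3.58.1 in R 4.3.3 (3 group means, 9 arrays, default eBayes), tested on simulated data. Precision is limited by 3 arrays per group (median SE 0.13), and p-values measure the spread between these arrays. In results, "with MTAP" means MTAP-positive against MTAP-negative, and "with inhibitor" inhibitor-treated against MTAP-positive cells. All 41 members are accounted for. Of the other lists up to 4 genes past the threshold per comparison could be named, those with the largest change. IDS and ARSA are named besides, for a limit on their counts. Members and lists were chosen with earlier results of these data known.

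Whether replicate numbers pair arrays was checked by correlating deviations from group means over genes. Same-numbered arrays gave 0.35, 0.23 and 0.13 for MTAP-positive and MTAP-negative, 0.72, 0.56 and 0.30 for inhibitor-treated and MTAP-positive, and 0.29, 0.03 and 0.02 for inhibitor-treated and MTAP-negative cells. The numbers were taken to pair arrays in the first 2 comparisons, where all exceeded 0.1. The main counts and values nevertheless come from the fit without pairs, and the replicate block is an alternative to it.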

Additional observations from a re-analysis of the deposited data

How the results depend on the processing

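Over 20 alternatives, 449 of 499 values of called members kept direction and call, 50 kept direction only and 0 reversed. For NPC1, SMPD1, GABARAPL1 and TPP1 the mean of all probe sets draws on a probe set kept only through groups where it was high. No cause was tested for any change below, save that the 60th percentile filter and the fit without _s_at and _x_at probe sets test fewer genes, and 2-group fits fewer arrays. With MTAP, 1103 genes were higher and 647 lower. These became 587 and 390 with the filter at the 60th percentile, 673 and 331 with only the 2 groups compared, and 481 and 181 with the ACTB covariate. Centring gave 996 lower. Leaving out single arrays gave 667 to 1360 higher and 347 to 703 lower. The 8 higher members became 5 without _s_at and _x_at probe sets, a fit that tested 22 of the 40 members. They also became 5 with only the 2 groups, 14 with array weights, 4 with the ACTB covariate and 4 to 14 without single arrays. Members lower went from 0 to 1 with centring, repeated quantile normalisation or array weights. With inhibitor, 562 genes were higher and 708 lower. These became 348 and 437 with the 60th percentile filter. The replicate block gave 876 higher and array weights 1283 lower. Single arrays left out gave 172 to 624 and 198 to 714, both lowest without inhibitor-treated replicate 3. Members lower went from 0 to 3 with array weights and 2 with the replicate block. Their median of 0.05 ran from -0.0593, without MTAP-positive replicate 2, to 0.10 without single arrays. Inhibitor-treated against MTAP-negative cells, 948 genes were higher and 981 lower with the 60th percentile filter, from 1776 and 1530. The 15 higher members became 8 without _s_at and _x_at probe sets, again among the 22 tested. The 1 lower member, ATG5, could not be tested there, since it has only _s_at probe sets. Members lower went from 1 to 0 with the mean of all probe sets and to 2 with centring, the ACTB covariate or the replicate block. They were 3 with array weights, and 1 to 2 without single arrays. The replicate block changed no other call of a member than those of TPP1, ATG5, ATG12 and ATP6V0D1. Adjusting over all probe sets, chosen after seeing the data, ended the call of SMPD1 with MTAP. Values below 6.64, on 6 of 9 arrays for CTSZ and on 1 array each for GAA, CTSD, TFEB and ULK1, limit what can be said of these genes.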
